A study of Mus musculus with 18 samples.

Results

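Whole aggregates of TET-deficient and wild-type mouse cells were compared after 2 days of differentiation in medium without cytokines. The members are the 4 libraries of this day and medium among the 18 libraries of the series, 2 of wild-type cells and 2 of cells lacking Tet1, Tet2 and Tet3 (TKO), and the counts of all 25239 genes in them. Wild-type cells were E14Tg2a, an established line of male embryonic stem cells (ESCs). The TKO cells descend from them by successive rounds of Cas9 cutting that removed the open reading frames of Tet1, then Tet2, then Tet3, and the study used 1 clone of each genotype in most assays. Both genotypes passed through 44 h as epiblast-like cells (EpiLCs) in activin A and Fgf, and were then aggregated in GK15 medium with none of BMP4, BMP8a, SCF, LIF and EGF, the factors that otherwise induce primordial germ cell-like cells (PGCLCs). Nothing was sorted. The rest of the series enters only where it shows how the day 2 difference stood, namely EpiLCs and day 6 aggregates without cytokines of both genotypes and TKO aggregates with cytokines at day 2. The 18 libraries include no wild-type library of day 2 with cytokines.

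TET proteins oxidise 5-methylcytosine, a step towards the removal of DNA methylation, and ESCs express Tet1 and Tet2. Naive pluripotency is the state of the preimplantation epiblast and is held by factors such as Nanog, Esrrb, Klf4 and Tfcp2l1, which are lowered as cells pass to the formative state that EpiLCs model. From that state, cells without further signals usually drift towards neural fates, whereas BMP signals induce primordial germ cells (PGCs) through Prdm1, Prdm14 and Tfap2c. Genes of later germ cells (meiosis, the piRNA pathway) are a classic group silenced by promoter DNA methylation in somatic cells.

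The TKO libraries held 12872533 and 12100902 counts, and the wild-type libraries 15223241 and 22405817. The ribosomal precursor locus Rn45s took 21.5% and 31.3% of the wild-type counts and 16.2% and 20.9% of the TKO counts. Levels below are counts divided by the size factor of each library (normalised counts), replicate 1 first. They are not divided by gene length, so they compare libraries and not genes. Differences are log2 fold changes, TKO minus wild-type, with their standard error (SE) and a p-value of edgeR's quasi-likelihood test adjusted over 16582 genes by the method of Benjamini and Hochberg. A gene was called higher or lower when the adjusted p was below 0.05 and the log2 fold change beyond 2. In whole aggregates, fewer cells of a type and less RNA per cell cannot be told apart. The study describes the libraries of a group as biological replicates, and the labels do not say whether they came from separate days. The p-values therefore measure only the spread between libraries within groups, estimated over all 18 libraries. An exact test of a single gene in 2 against 2 libraries cannot reach 0.05, so each test rests on the model fitted to all genes.

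The deleted genes were examined first. Tet3 (chr6:83362373-83457208) stood at 2558 and 1965 in wild-type and 165 and 238 in TKO, a log2 fold change of -3.52 ± 0.32 (adjusted p = 1.7e-06). Tet1 (chr10:62804570-62887469) stood at 2028 and 1754 against 1937 and 1200, and its difference of -0.30 ± 0.31 did not pass the test (adjusted p = 0.49). Tet2 (chr3:133463677-133545136) stood at 287 and 200 against 355 and 405 (0.61 ± 0.44, adjusted p = 0.3). Thus Tet3 was lower in both TKO libraries, while Tet1 and Tet2 were not. In TKO aggregates with cytokines of the same day Tet1 was at 623 and 590, and in EpiLCs it was at 737 and 967 in TKO against 6227 and 6036 in wild-type. Exon bases outside the reading frame, which the deletion leaves in place, make up 57.4% of the exons of Tet1, 37.4% of Tet2 and 52.8% of Tet3, so a whole-gene count cannot by itself check the deletion. The counts of Tet1 and Tet2, which were not lower, do not bear out the label and cannot by themselves refute it. Every TKO library below is the library labelled TKO.

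A second feature set the libraries labelled TKO without cytokines apart. Genes of rod photoreceptors, the light-sensing cells of the retina, were summed in each library. The 17 rod genes summed to 108 and 168 normalised counts in wild-type, 3833 and 7215 in TKO without cytokines, and 55.5 and 59.6 in TKO with cytokines. Outside the TKO libraries without cytokines of days 2 and 6 no library exceeded 168. Gnat1, which encodes the rod transducin, went from 2.92 and 0.777 in wild-type to 539 and 1059 in TKO without cytokines, and stood at 2.27 and 6.21 in TKO with cytokines. In all, 16 of the 17 rod genes were called higher and none lower, beside 9.43% and 3.08% of all genes tested. More than 3 counts were held by 3 and 4 of the 17 in wild-type and by all 17 in both TKO libraries. The list was chosen after these levels were seen, and its members entered the test mostly through the libraries where they were high. The number called is therefore a description and no test. Among these 16 the level in TKO replicate 2 was 1.26 to 2.83 times that in replicate 1, with a median of 1.93. Lens and cornea genes summed to 117 and 76.1 in wild-type, 471 and 973 in TKO and 195 and 177 in TKO with cytokines. Lists of 5 other adult tissues, also chosen after the values were seen, differed among themselves. Their counts are to be read beside the same shares of all genes, and likewise as descriptions. Of 8 tested genes of cones and other retina 7 were called higher, and their list summed to 65.3 and 50.5, 446 and 559, and 136 and 132 in the same order. Of 5 tested pigment cell genes 4 were called higher, with sums of 17.5 and 41.2, 111 and 184, and 58.9 and 37.2. Of 7 tested skeletal muscle genes 6 were called higher. The median log2 fold change was 5.49, or 3.68 with genes at 0 in wild-type set at a floor of 3 counts per library. With TKO with cytokines in place of TKO without it was 0.25. Myh4, a fast myosin heavy chain, stood at 0.975 and 0 against 25.9 and 54.1, and at 0 in both libraries with cytokines. Mylpf, a myosin light chain, stood at 24.4 and 28.7 against 709 and 687 but was higher still with cytokines, at 1883 and 1910. The remaining gene was Acta1, skeletal actin, at 1975 and 1887 against 654 and 1288, so the sum of that list, 2006 and 1919 against 1460 and 2161, did not separate the groups. Of 6 tested genes of glia 1 was called higher and none lower, and the list summed to 510 and 510 against 531 and 437. The called gene was Mog, of the myelin sheath, at 10.7 and 6.22 against 89.3 and 62.5, and at 68.0 and 58.3 with cytokines. Of 6 tested genes of skin and connective tissue 2 were called higher and 1 lower. The list summed to 812 and 477 in wild-type, 1258 and 2201 in TKO, and 145 and 107 in TKO with cytokines. Hprt and Xist, both chosen after their values were seen, also stood apart. Hprt, a gene in which E14Tg2a is known to be deficient, stood at 11.7 and 8.55 against 44.6 and 62.5, and at 1.13 and 3.72 with cytokines, and its call was lost without wild-type replicate 2 (adjusted p = 0.068). Xist, the RNA of the inactive X chromosome of female cells, stood at 66.3 and 39.6 against 846 and 982, and at 193 and 98.1 with cytokines. Summed transcripts of adult eye tissue, pigment cells and skin and connective tissue were therefore higher in both TKO libraries examined here than in both libraries of the same cells with cytokines. The same held for Myh4, Hprt and Xist. Their part in the results below was not tested. The counts alone do not show whether these transcripts came from the aggregated cells. Levels in TKO with cytokines are given beside the main groups of genes, as libraries of the same genotype and day in which the rod genes were below the wild-type sums. These libraries differ in medium as well.

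**Figure D1:**
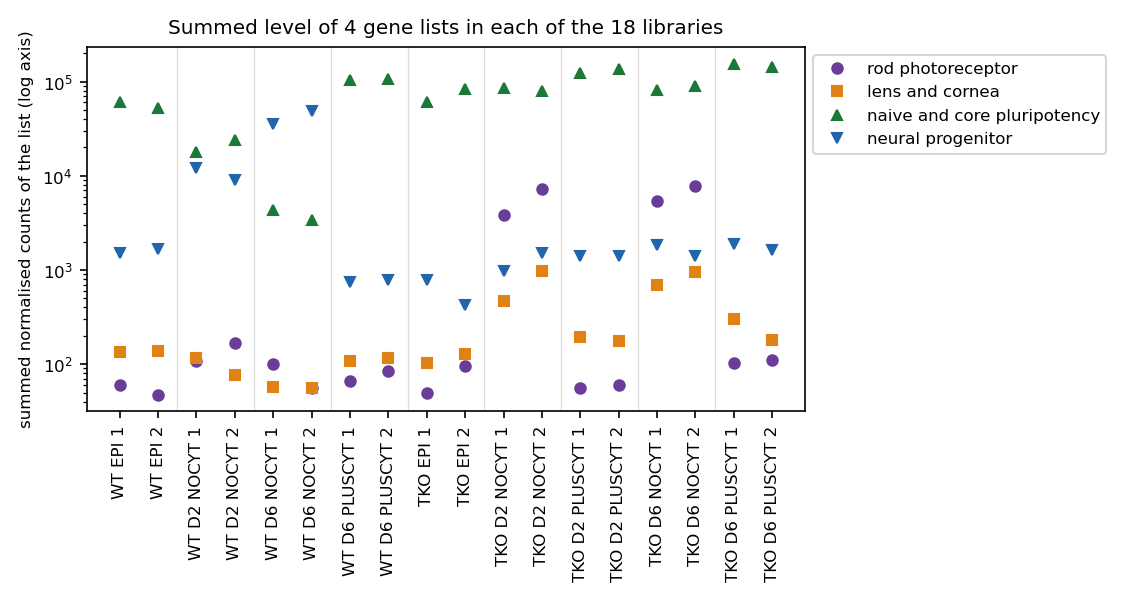
Summed normalised counts (log axis) of 4 gene lists in each of the 18 libraries, 1 point per list and library, with replicates side by side. Rod genes reached 3833 and 7215 in TKO without cytokines at day 2, whereas the naive pluripotency genes were at 86134 and 80239 there and at 123777 and 137154 in TKO with cytokines.

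Across the 16582 genes tested, 1563 (9.43%) were called higher in TKO and 511 (3.08%) lower. By adjusted p alone, 2985 genes (18%) were higher and 2462 (14.8%) lower. The median log2 fold change over all genes was 0.00 with quartiles of -0.51 and 0.74. For 11621 genes with a mean of 50 or more, the median absolute log2 difference was 0.22 between wild-type replicates, 0.15 between TKO replicates and 0.45 between the means of the genotypes. A difference beyond 2 on the log2 scale was seen for 33 of these genes between wild-type replicates, 5 between TKO replicates and 882 between genotypes. The difference between genotypes therefore exceeded that between replicates. Of the genes called higher, 212 (13.6%) were more than 4 times as high in TKO without cytokines as in TKO with them, and the median ratio was 1.25. Leaving out all genes over 4 times their level with cytokines, a choice made after seeing the data, left 1351 higher and 473 lower. With TKO with cytokines in place of TKO without, also chosen after seeing the data, 1316 genes were called higher and 938 lower. Of the 1563 genes called higher 1062 were called there too, and of the 511 called lower 428 were.

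**Figure D2:**
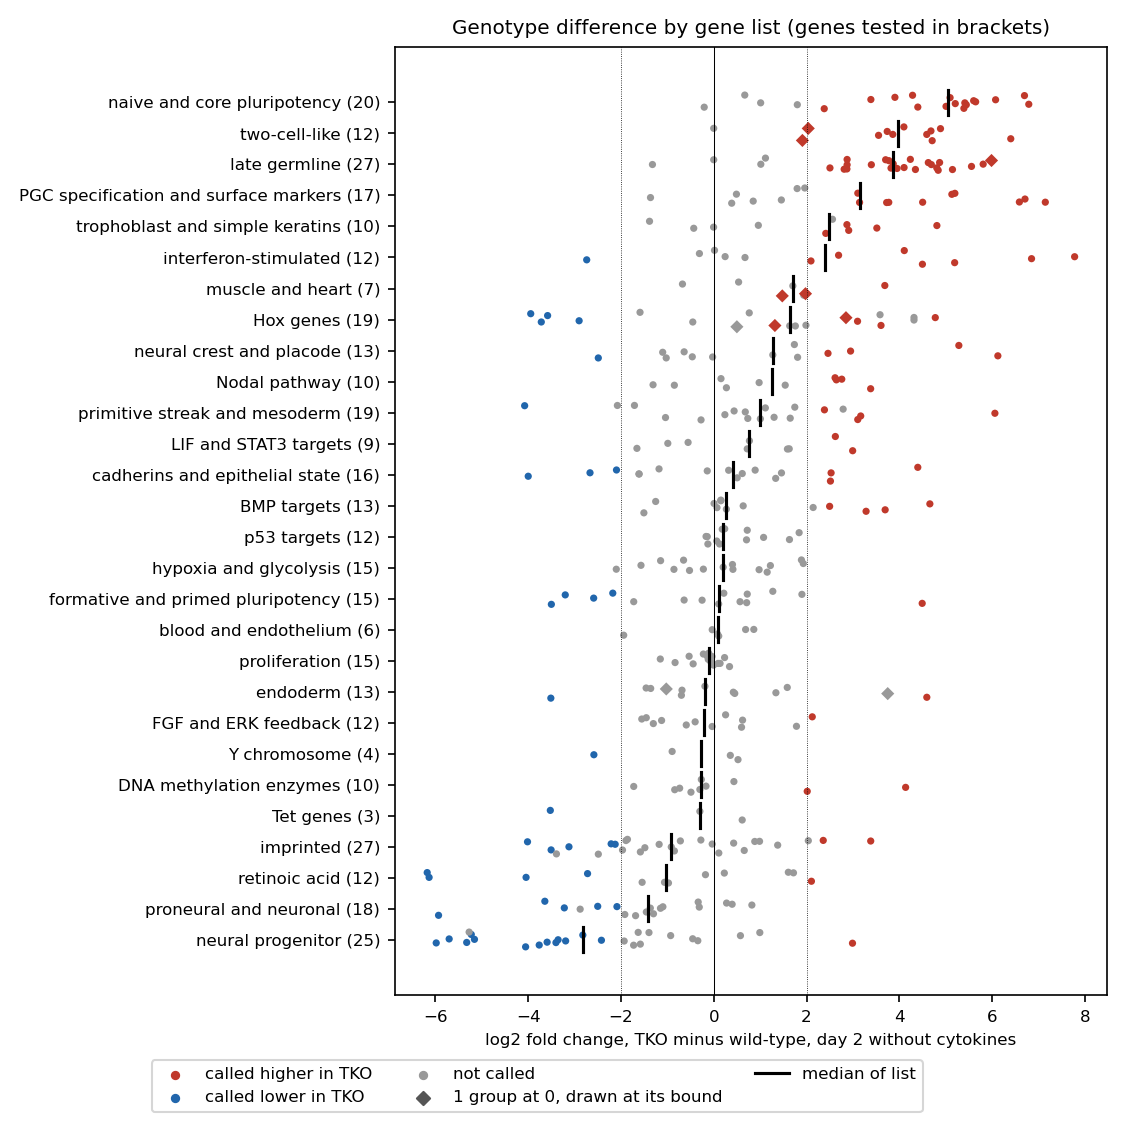
Log2 fold change between TKO and wild-type at day 2 (x axis) of each tested gene of 28 lists, with the median of each list. Points are coloured by call, and genes with 1 group at 0 counts are drawn as diamonds at the bound that 3 counts in each library of that group allow.

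Genes of naive and core pluripotency were higher in TKO. All 20 genes of the list passed the filter on low counts, and 16 were called higher and none lower (9.43% and 3.08% of all genes). By adjusted p alone 18 were higher, and the median log2 fold change was 5.05. Zfp42, the marker of naive ESCs also known as Rex1, stood at 89.7 and 48.2 in wild-type and 3020 and 2915 in TKO (5.41 ± 0.35, adjusted p = 8.4e-08). Dppa2, a chromatin factor of early embryos and germ cells, stood at 20.5 and 5.44 against 915 and 804 (6.08 ± 0.35, adjusted p = 5.9e-08). Tdgf1, a Nodal co-receptor of the epiblast, stood at 164 and 66.0 against 5531 and 5743 (5.60 ± 0.39). For each of these genes the TKO libraries lay close together and far above both wild-type libraries. Fgf4, a growth factor made by pluripotent cells, stood at 77.0 and 54.4 against 2852 and 2759 (5.39 ± 0.39). Tfcp2l1, a transcription factor of the LIF pathway, stood at 77.0 and 122 against 3212 and 3394 (5.01 ± 0.40). Dppa5a, among the most abundant transcripts of naive cells, stood at 355 and 442 against 19329 and 16208 and had the highest mean normalised count of any gene called higher. With cytokines it stood at 26950 and 47286, Zfp42 at 3770 and 3763, Dppa2 at 751 and 681 and Tfcp2l1 at 5902 and 6201, all far above wild-type.

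Not all pluripotency genes differed. Pou5f1, which encodes OCT4, stood at 3786 and 8819 in wild-type and 9806 and 10802 in TKO, and its difference of 0.67 ± 0.42 did not pass the test (adjusted p = 0.24). Sall4, a zinc-finger partner of OCT4, stood at 7446 and 9223 against 7621 and 7187 (adjusted p = 0.6). Sox2, which is shared by pluripotent and neural cells, stood at 3258 and 2196 against 5696 and 5521 (1.01 ± 0.30, adjusted p = 0.017). These genes were high in both genotypes, and wild-type replicate 1 was the lowest library for Pou5f1. Nanog stood at 1577 and 1782 against 6585 and 5398, a log2 fold change of 1.80 ± 0.27 (adjusted p = 0.00016) just short of the limit of 2. Esrrb, chosen like Sox2, Nanog and Klf4 after its values were seen, stood at 89.7 and 76.9 against 4627 and 3886 (5.65 ± 0.77, adjusted p = 6.3e-05). Klf4 stood at 40.9 and 54.4 against 462 and 570 in TKO, and at 2748 and 1815 in TKO with cytokines.

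Genes of PGC specification and PGC surface markers were also higher. Of 17 genes, all tested, 10 were called higher and none lower (9.43% and 3.08% of all genes), and the median log2 fold change was 3.14. The summed level of the list, 13603 and 16082 in wild-type and 15474 and 14304 in TKO, did not separate the groups. Tfap2c, one of the factors that direct cells into the germline, stood at 47.8 and 45.1 in wild-type and 1789 and 1544 in TKO (5.13 ± 0.28, adjusted p = 5.2e-08). Prdm14, which represses somatic genes and restores pluripotency genes in PGCs, stood at 2.92 and 6.99 against 788 and 740 (7.15 ± 0.51, adjusted p = 2.2e-07). Prdm1, which encodes BLIMP1, stood at 40.9 and 32.6 against 611 and 381 (3.73 ± 0.38, adjusted p = 4.6e-06). All of these regulators lay above wild-type in both TKO libraries, with Prdm1 less even between replicates. With cytokines the levels in TKO were 2007 and 2230 for Tfap2c, 817 and 962 for Prdm14 and 362 and 276 for Prdm1. Pecam1, a cell-surface glycoprotein of ESCs and PGCs, stood at 27.3 and 21.8 against 1034 and 801. Elf3, an epithelial ETS factor, stood at 84.8 and 125 against 1019 and 891.

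Other germ cell genes had lower counts or did not pass. Nanos3, needed for PGC survival, stood at 4.87 and 2.33 against 55.0 and 45.7 (3.77 ± 0.51). Dppa3, also known as Stella, stood at 1.95 and 4.66 against 105 and 58.9 (4.50 ± 0.59, adjusted p = 4.5e-05), and at 197 and 137 with cytokines. Kit, the receptor for SCF, stood at 520 and 718 against 1027 and 630, so the groups overlapped (adjusted p = 0.56). Dnd1, an RNA-binding protein of germ cells, stood at 117 and 136 against 184 and 180 (adjusted p = 0.39). Lin28a, an RNA-binding protein of pluripotent cells and PGCs, went the other way, at 11744 and 13792 against 4602 and 5570 (-1.36 ± 0.30, adjusted p = 0.003). Nanos3, Dppa3 and Lin28a were chosen after their values were seen.

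**Figure D3:**
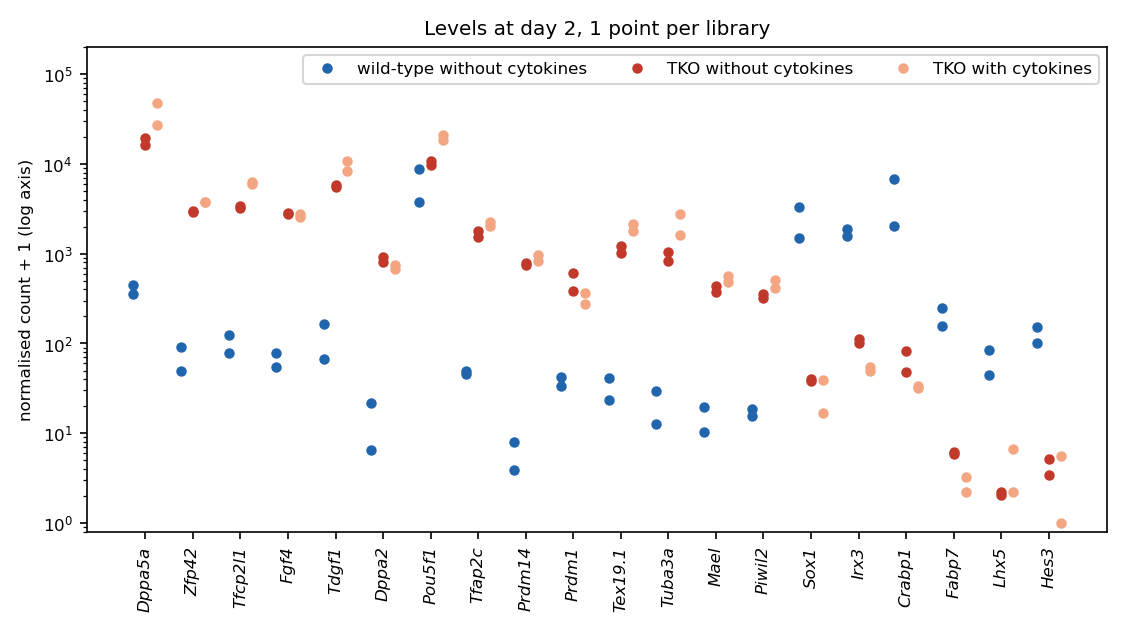
Normalised count plus 1 (log axis) of 20 genes at day 2, 1 point per library, for wild-type and TKO without cytokines and TKO with cytokines. For 13 of the 14 pluripotency and germline genes on the left both TKO pairs lie more than 5-fold above wild-type, Pou5f1 being the exception, and for the 6 neural genes on the right both lie below it.

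Genes of later germ cells made up the list with the most calls in number. Of 27 genes, all tested, 23 were called higher and none lower (9.43% and 3.08% of all genes), and the median log2 fold change was 3.87. Tex19.1, which restrains retrotransposons in germ cells, stood at 40.0 and 22.5 in wild-type and 1026 and 1207 in TKO (5.15 ± 0.35, adjusted p = 1.1e-07). Tuba3a, a testis tubulin, stood at 28.3 and 11.7 against 1045 and 827 (5.56 ± 0.35, adjusted p = 5.9e-08). Because Tuba3a has the near-identical copy Tuba3b and reads that fit several places were not counted, its level is uncertain. Mael, a protein of the piRNA pathway, stood at 18.5 and 9.32 against 432 and 369, and Piwil2, a PIWI protein that binds piRNAs, at 17.5 and 14.8 against 321 and 353. In all of these both TKO libraries exceeded wild-type more than 10-fold. With cytokines Tex19.1 stood at 1795 and 2132, Mael at 477 and 570 and Piwil2 at 414 and 506. Taf7l, a testis form of a subunit of the general transcription factor TFIID, had no count in either wild-type library and stood at 159 and 173 in TKO. With 3 counts taken as the floor in each wild-type library, its mean level was at least 63.1-fold higher in TKO.

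Dazl, Ddx4 and Stra8, among the best known later germline genes, were chosen after their values were seen. Dazl, an RNA-binding protein that licenses germ cells for gametogenesis, stood at 4.87 and 5.44 against 157 and 147 (4.81 ± 0.67, adjusted p = 7.6e-05). Ddx4, the VASA helicase, stood at 71.2 and 52.1 against 437 and 484 (2.88 ± 0.34). Stra8, which drives entry into meiosis in response to retinoic acid, stood at 0.975 and 2.33 against 155 and 54.1, with the TKO libraries almost 3-fold apart. With cytokines Dazl stood at 55.5 and 186, Ddx4 at 460 and 520 and Stra8 at 83.9 and 182, so Dazl and Stra8 were uneven there. Of the 4 genes not called, Tdrd9, a helicase of the piRNA pathway, stood at 7.80 and 3.11 against 12.5 and 9.61 (adjusted p = 0.25). Wt1, a transcription factor of the somatic gonad and kidney, was lower by adjusted p, at 179 and 177 against 73.7 and 72.1 (-1.32 ± 0.39, adjusted p = 0.018).

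Promoter windows of these germline genes are described next, and whether their sequence bears on the levels was not tested. RefSeq windows (GRCm38.p6, 250 bases before to 50 after a start of the gene) were matched by symbol for 25 of the 27 genes. The first listed window of each gene was taken, and its start need not be the outermost base of the gene. The motif CACGTG, an E-box that reads the same on both strands, was present in 12 of the 25 windows (48.0%). It was present in 9.86% of the 12819 windows of genes tested, in 8.47% of windows of genes called higher and in 6.76% of those called lower. Among the genes with the motif, Tdrd9 was not called, and among those without it Asz1 and Tdrd5 were not. The capitals mark CACGTG in 5 windows chosen to show it at different distances. They are Taf7l (chrX:134476441-134476740, minus strand), Mael (chr1:166238695-166238994, minus strand), Stk31 (chr6:49395289-49395588, plus strand), Hormad1 (chr3:95559427-95559726, plus strand) and Sycp3 (chr10:88459337-88459636, plus strand), each printed 5′ to 3′ along its gene.
Taf7l: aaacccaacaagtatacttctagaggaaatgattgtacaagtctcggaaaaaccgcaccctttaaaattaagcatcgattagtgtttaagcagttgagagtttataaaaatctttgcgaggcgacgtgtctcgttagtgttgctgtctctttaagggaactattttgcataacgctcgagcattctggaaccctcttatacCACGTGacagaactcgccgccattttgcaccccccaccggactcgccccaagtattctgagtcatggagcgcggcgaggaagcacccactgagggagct
Mael: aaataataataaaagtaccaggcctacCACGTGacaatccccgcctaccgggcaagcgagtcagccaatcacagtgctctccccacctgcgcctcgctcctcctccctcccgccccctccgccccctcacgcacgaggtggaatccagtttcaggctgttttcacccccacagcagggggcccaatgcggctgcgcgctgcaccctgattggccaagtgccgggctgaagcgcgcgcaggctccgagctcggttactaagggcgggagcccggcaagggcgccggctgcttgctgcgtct
Stk31: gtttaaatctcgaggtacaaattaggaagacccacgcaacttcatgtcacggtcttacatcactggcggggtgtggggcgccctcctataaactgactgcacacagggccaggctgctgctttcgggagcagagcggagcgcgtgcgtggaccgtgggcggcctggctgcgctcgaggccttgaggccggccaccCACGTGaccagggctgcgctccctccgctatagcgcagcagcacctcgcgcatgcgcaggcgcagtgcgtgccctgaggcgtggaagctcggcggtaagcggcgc
Hormad1: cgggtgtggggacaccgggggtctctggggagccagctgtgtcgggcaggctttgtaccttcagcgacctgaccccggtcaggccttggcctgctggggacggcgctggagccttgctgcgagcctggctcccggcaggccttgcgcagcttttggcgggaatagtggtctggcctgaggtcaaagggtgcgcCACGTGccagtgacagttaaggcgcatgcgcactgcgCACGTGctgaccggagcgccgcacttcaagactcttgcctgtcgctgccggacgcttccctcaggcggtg
Sycp3: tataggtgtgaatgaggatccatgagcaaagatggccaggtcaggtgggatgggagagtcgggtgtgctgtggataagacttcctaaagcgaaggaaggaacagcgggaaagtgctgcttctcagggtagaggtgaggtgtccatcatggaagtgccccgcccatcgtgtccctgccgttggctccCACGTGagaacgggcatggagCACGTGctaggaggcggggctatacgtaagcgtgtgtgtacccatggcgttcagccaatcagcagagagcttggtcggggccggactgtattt
Counted from the start on which each window was placed, the motif began at base -49 in Taf7l, -223 in Mael and -55 in Stk31. It occurred more than once in Hormad1 (-57 and -20) and Sycp3 (-64 and -43). Stk31, a germ cell kinase-like protein, stood at 15.6 and 4.66 in wild-type and 230 and 288 in TKO. Hormad1, a protein of meiotic chromosome axes, stood at 9.75 and 0.777 against 77.8 and 62.5. Sycp3, a component of the synaptonemal complex, stood at 86.8 and 55.9 against 528 and 532 (2.87 ± 0.34). All 5 were higher in TKO by the test, including genes with 1 and with 2 copies of the motif. Tex19.1 and Tuba3a, which were also called higher, had windows without the motif.

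Promoter windows of genes called higher held fewer CpG dinucleotides than those of all genes tested, but about as many as those of all genes with a window, tested or not. Their median was 8 CpGs in 300 bases (1133 windows), against 17 for genes called lower (370 windows), 19 for all genes tested and 7 for all 27025 genes with a window. Windows with under 10 CpGs made up 55.9% of the windows of genes called higher, 27.3% of those of genes called lower, 22.9% of those of all genes tested and 56.1% of those of all genes with a window. The late germline windows did not follow this, with a median of 19 CpGs and 4.0% under 10. The two-cell-like windows held a median of 2 CpGs (7 windows).

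**Figure D4:**
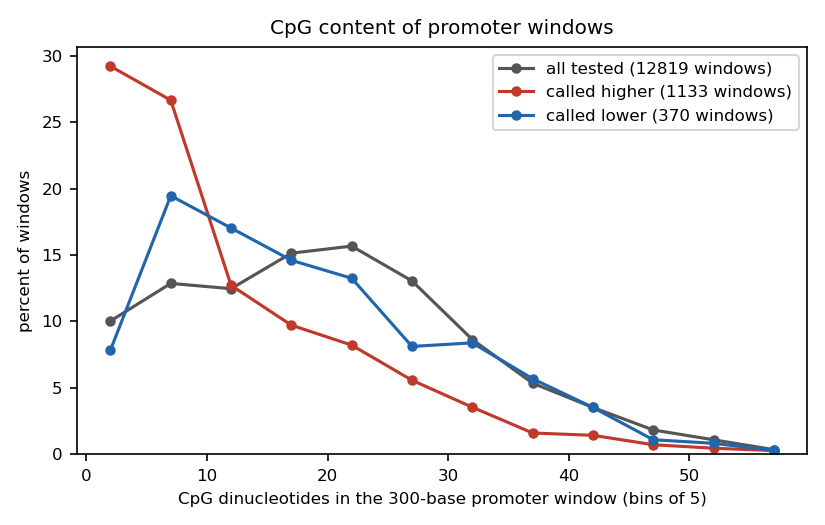
Share of promoter windows (percent) by number of CpG dinucleotides in 300 bases, in bins of 5 up to 59, for all genes tested, genes called higher and genes called lower. Windows of genes called higher lie to the left, with a median of 8 against 19 for all genes tested.

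Genes of the two-cell-like state, a transient state of ESC cultures that transcribes genes of the 2-cell embryo, were higher as well. Of 16 listed genes 13 were among those counted and 12 passed the filter, and 11 of these were called higher (9.43% of all genes). More than 3 counts were held by 2 and 4 of the 13 in wild-type and by 11 in each TKO library. Members could pass the filter through TKO libraries alone, where they were high, so the number called is a description. The median log2 fold change was 4.64, or 3.98 with genes at 0 in wild-type set at their bound. Zscan4d, of a zinc-finger cluster linked to telomere maintenance, stood at 5.85 and 11.7 in wild-type and 120 and 129 in TKO (3.74 ± 0.46, adjusted p = 5e-05). Zscan4a stood at 2.92 and 0.777 against 143 and 178, and Tmem92, a membrane protein, at 2.92 and 2.33 against 77.8 and 86.5. Usp17la, a deubiquitinase, stood at 0.975 and 5.44 against 71.6 and 51.7. The groups were far apart in each, although levels were modest. With cytokines these genes were less even in TKO, with Zscan4a at 55.5 and 142. In EpiLCs 4 genes of the list were called lower in TKO and none higher, with a median of -3.16. The Zscan4 genes are near-identical copies, so their single values are uncertain.

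Interferon-stimulated genes were mixed. Of 12 tested, 7 were called higher and 1 lower (9.43% and 3.08% of all genes). Samd9l, an antiviral factor, stood at 4.87 and 0.777 in wild-type and 640 and 590 in TKO (7.78 ± 0.57, adjusted p = 2.6e-07). Oas1a, of the oligoadenylate synthetase family, stood at 8.77 and 8.55 against 195 and 210 (4.50 ± 0.46). Its relative Oasl2 stood at 7.80 and 2.33 against 185 and 186. With cytokines Samd9l stood at 271 and 428 and Oas1a at 402 and 282. Xaf1, an antagonist of an inhibitor of apoptosis, had 3 counts in the wild-type libraries together and stood at 153 and 180 in TKO, a ratio of 128 with a 95% counting interval of 43.2 to 622. Ifit2, a classic interferon response gene, was lower instead, at 90.7 and 66.0 against 7.26 and 16.8 (-2.74 ± 0.45, adjusted p = 0.00033). Intervals and floors of this kind cover counting error only.

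Neural progenitor genes were lower in TKO. Of 25 genes, all tested, 13 were called lower and 1 higher (3.08% and 9.43% of all genes). The median log2 fold change was -2.82, or -1.47 without wild-type replicate 1. Sox1, the earliest marker of the neural plate (chr8:12395519-12399555), stood at 3293 and 1498 in wild-type and 37.4 and 39.6 in TKO (-5.98 ± 0.53, adjusted p = 1.3e-06). Irx3, which patterns the neural tube, stood at 1574 and 1872 against 101 and 112 (-4.05 ± 0.33, adjusted p = 5.3e-07). Fabp7, a fatty acid binding protein of radial glia, stood at 248 and 156 against 5.19 and 4.81, and Hes3, a Notch effector, at 153 and 99.4 against 4.15 and 2.40. Lhx5, a LIM factor of the forebrain, stood at 82.9 and 43.5 against 1 count in each TKO library, a ratio of 54.7 (interval 14.9 to 456). Nes, which encodes the intermediate filament nestin and was chosen after its values were seen, stood at 4052 and 4638 against 422 and 840. With cytokines Sox1 was at 15.9 and 38.5 and Irx3 at 48.7 and 53.4, so the low neural levels of TKO were found in both media. The 1 gene called higher was Rax, a factor of the eye field that was chosen after its values were seen. It stood at 1.95 and 2.33 against 18.7 and 18, and its adjusted p rose to between 0.053 and 0.091 when any 1 of the 4 libraries was left out.

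Proneural and neuronal genes were fewer among the calls. Of 18 genes, all tested, 5 were called lower and none higher (3.08% and 9.43% of all genes), and 11 were lower by adjusted p (14.8% of all genes). The median log2 fold change was -1.41, or -2.29 with TKO with cytokines in place of TKO without. Nhlh1, a helix-loop-helix factor of newborn neurons, stood at 81.9 and 65.3 in wild-type and had 1 count in each TKO library, a ratio of 65.2 (interval 17.8 to 543). Dll1, a Notch ligand, stood at 276 and 246 against 98.6 and 96.1 (-1.45 ± 0.29, adjusted p = 0.0016). Elavl3, a neuronal RNA-binding protein, stood at 120 and 158 against 67.5 and 61.3 (-1.15 ± 0.27, adjusted p = 0.005). Both lay lower in each TKO library than in each wild-type library but did not reach a log2 fold change of -2, and both did with cytokines, at -2.46 and -2.19.

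Genes of retinoic acid handling held some of the lowest log2 fold changes. Of 12 genes, all tested, 4 were called lower and 1 higher (3.08% and 9.43% of all genes). Crabp1, a retinoic acid binding protein of the hindbrain (chr9:54764748-54773110), stood at 6774 and 2049 in wild-type and 46.7 and 81.7 in TKO (-6.13 ± 0.48, adjusted p = 3.9e-07). Cyp26c1, an enzyme that degrades retinoic acid, stood at 1171 and 349 against 11.4 and 9.61 (-6.18 ± 0.73). Crabp2 stood at 2512 and 1684 against 143 and 115, and Cyp26a1 at 673 and 493 against 70.6 and 111. Wild-type replicate 1 was higher than replicate 2 in all of these, by more than 3-fold for Crabp1, yet both lay above TKO. With cytokines Crabp1 stood at 30.6 and 32.3 and Crabp2 at 131 and 113. Rarg, a retinoic acid receptor, was higher by adjusted p instead, at 765 and 1002 against 3253 and 2708 (1.72 ± 0.20, adjusted p = 1.4e-05). It fell short of the limit of 2 and is not the gene called higher.

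Hox genes, the regulators of position along the body axis, moved in both directions. Of 19 tested from 23, 5 were called higher and 4 lower (9.43% and 3.08% of all genes). The median of 1.99 (1.64 with genes at 0 at their bound) turned to -0.98 when genes below a mean CPM of 1 were left out. It was 3.0 without wild-type replicate 2. The 4 lower genes were anterior ones, and among them Hoxb1 stood at 656 and 424 in wild-type and 41.5 and 42.1 in TKO (-3.72 ± 0.55, adjusted p = 0.00014), Hoxb2 at 484 and 208 against 24.9 and 20.4, and Hoxa2 at 228 and 149 against 21.8 and 9.61. With cytokines Hoxb1 stood at 39.7 and 14.9. The higher genes were low in level. Hoxb9 stood at 2.92 and 0.777 against 55.0 and 49.3 (4.78 ± 0.58, adjusted p = 2.3e-05). Hoxd4 had no count in wild-type and 18 and 16 counts in TKO, at least 7.21-fold higher.

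Formative and primed genes, which EpiLCs express, split. Of 15 genes, all tested, 4 were called lower and 1 higher (3.08% and 9.43% of all genes), with a median of 0.11. Sox3, a relative of Sox1 and Sox2, stood at 1571 and 1600 in wild-type and 149 and 137 in TKO (-3.50 ± 0.40, adjusted p = 1.4e-05), and Sox4 at 5067 and 3887 against 497 and 497. Pou3f1, which encodes OCT6, stood at 2023 and 2013 against 340 and 576 (-2.18 ± 0.29), and reached only -1.86 without TKO replicate 1. Tcf15, a factor of cells leaving the naive state, was higher, at 21.4 and 13.2 against 384 and 406 (4.49 ± 0.51, adjusted p = 1.3e-05). Fgf5, the usual marker of the formative state, stood at 522 and 548 against 601 and 577 (adjusted p = 0.88), and at 308 and 65.8 in TKO with cytokines. The formative list thus held genes on either side. Its median was -1.53 with TKO with cytokines in place of TKO without and 0.35 with library size alone, and its summed level was lower in TKO, at 16177 and 17651 against 29012 and 35937.

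Among DNA methylation enzymes, 2 of 10 were called higher and none lower, against 9.43% and 3.08% of all genes. Dnmt3l, a catalytically inactive partner of the de novo enzymes that is expressed in naive and germ cells, stood at 47.8 and 30.3 in wild-type and 734 and 656 in TKO (4.14 ± 0.45, adjusted p = 9e-06). Dnmt3b, a de novo methyltransferase, stood at 10242 and 18747 against 3916 and 5097 (-1.72 ± 0.27, adjusted p = 0.00025), and reached -2.12 without wild-type replicate 1. Dnmt3a, the other de novo methyltransferase, stood at 3258 and 4141 against 1839 and 2396 (-0.84 ± 0.28, adjusted p = 0.031). Uhrf2, a relative of the maintenance factor UHRF1, was lower by 0.73 ± 0.17 on this scale (adjusted p = 0.0049). Apobec1, a cytidine deaminase, stood at 19.5 and 11.7 against 74.7 and 52.9 (2.02 ± 0.47), a call that was lost without wild-type replicate 2 (1.67) or TKO replicate 1 (1.73), which leaves 1 of 10.

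Imprinted genes were lower more often than higher. Of 27 genes, all tested, 5 were called lower and 2 higher (3.08% and 9.43% of all genes), and 11 were lower by adjusted p (14.8% of all genes). The median was -0.91, or -0.35 without wild-type replicate 1. Mest, a hydrolase expressed from the paternal allele, stood at 5062 and 1634 in wild-type and 163 and 260 in TKO (-4.01 ± 0.55, adjusted p = 6.9e-05), and at 14.7 and 9.93 with cytokines. Magel2, of the Prader-Willi region, stood at 433 and 317 against 41.5 and 25.2. Rian, a maternally expressed noncoding RNA, had the highest mean level of any gene called lower, at 10210 and 10578 against 2474 and 2117 (-2.21 ± 0.38), and fell short of the limit with library size alone (-1.97). Ndn and Peg3, both paternally expressed, were lower by 1.58 ± 0.27 and 1.48 ± 0.26 respectively. Peg10, a retrotransposon-derived gene of the placenta, was higher, at 3619 and 1750 against 13252 and 14825 (2.36 ± 0.45, adjusted p = 0.00096), and fell short of the limit without wild-type replicate 2 (1.92).

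Genes of signalling pathways were read as lists of targets, although none of the cytokines had been added. Of 13 BMP targets, 4 were called higher and none lower (9.43% and 3.08% of all genes). The median was 0.27, or 0.53 without wild-type replicate 1 and 0.70 without TKO replicate 1. Bmp4 itself stood at 22.4 and 12.4 in wild-type and 353 and 538 in TKO (4.66 ± 0.45, adjusted p = 2.7e-06), and Smad7, an inhibitor of the pathway, at 328 and 174 against 2522 and 2450 (3.28 ± 0.28, adjusted p = 7.1e-07). The direct target Id1 stood at 255 and 221 against 199 and 314 (adjusted p = 0.94), and at 1947 and 2266 in TKO with cytokines. Its relative Id3 stood at 544 and 930 against 232 and 302 (-1.50 ± 0.63, adjusted p = 0.077), and at 1221 and 1035 with cytokines. Thus Id1 overlapped the wild-type range and Id3 lay below it in TKO without cytokines, and both lay above it where BMPs had been added.

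Of 9 tested genes of the LIF pathway, 2 were called higher and none lower (9.43% and 3.08% of all genes). By adjusted p 6 were higher and 1 lower (18% and 14.8% of all genes). Pim1, a kinase gene induced by STAT3, stood at 430 and 280 in wild-type and 2340 and 2106 in TKO (2.62 ± 0.27, adjusted p = 5.4e-06). Bcl3, a cofactor of NF-kB, stood at 15.6 and 15.5 against 114 and 142, and at 526 and 567 with cytokines. Stat3 stood at 204 and 188 against 502 and 704 (1.59 ± 0.28, adjusted p = 0.0005), and the receptor gene Lifr at 305 and 279 against 932 and 912 (1.63 ± 0.43). The lower gene was Socs3, a feedback inhibitor of STAT3 chosen after its values were seen, at 181 and 136 against 58.1 and 106 (-0.99 ± 0.32, adjusted p = 0.025) and at 910 and 828 with cytokines. Of 10 genes of the Nodal pathway, 4 were called higher and none lower (9.43% and 3.08% of all genes). By adjusted p 5 were higher and 2 lower (18% and 14.8% of all genes). Nodal stood at 308 and 203 against 1643 and 1606 (2.64 ± 0.32, adjusted p = 2e-05). Its antagonists Lefty1 and Lefty2 stood at 615 and 235 against 2800 and 2480 and at 455 and 180 against 2201 and 2161. With cytokines Nodal stood at 1386 and 982 and Lefty1 at 2613 and 2126. Pcsk6, a convertase that processes the ligand, was higher by 3.38 ± 0.34. Foxh1, a transcription factor that acts with SMADs, was lower, at 1168 and 1569 against 597 and 536 (-1.31 ± 0.27, adjusted p = 0.002).

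In the FGF pathway 1 of 12 genes was called higher and none lower, a share near the 9.43% of all genes. Etv5, an ETS factor induced by ERK, stood at 1162 and 1290 in wild-type and 5470 and 5470 in TKO (2.12 ± 0.43, adjusted p = 0.0015). Spry4, a feedback inhibitor, stood at 265 and 248 against 952 and 853 (1.78 ± 0.39, adjusted p = 0.003). The receptor genes Fgfr1 and Fgfr2 were lower by 1.12 ± 0.16 (adjusted p = 0.00012) and 1.45 ± 0.26 (adjusted p = 0.00073). Fgfr1 stood at 3919 and 5024 against 2027 and 2178, so its groups did not overlap.

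Other fates gave smaller counts. Of 19 tested genes of the primitive streak and mesoderm, 4 were called higher and 1 lower. Hand1, a factor of extraembryonic mesoderm and trophoblast, had 3 counts in wild-type and stood at 84.1 and 112 in TKO, a ratio of 74.7 (interval 25.1 to 366). Eomes, a T-box factor of the streak, stood at 100 and 175 against 457 and 433 (1.65 ± 0.32, adjusted p = 0.0013), and at 2.11 without wild-type replicate 2. Nkx1-2, a factor of the posterior epiblast, was lower by 4.07 ± 0.89, at 178 and 455 against 12.5 and 26.4. Of 13 endoderm genes 1 was called in each direction, beside the 9.43% of all genes called higher and 3.08% called lower. Gata4 stood at 1.95 and 8.55 against 157 and 120 (4.59 ± 0.61, adjusted p = 5e-05), with its partner Gata6 at 18.5 and 16.3 against 27.0 and 21.6 (adjusted p = 0.61). Cer1, an antagonist of Nodal and BMP, had 2 counts in TKO against 18.5 and 9.32 in wild-type, a ratio of 12 (interval 3.06 to 104), and its call was lost with DESeq2 on all genes with a count (adjusted p = 0.084) and without wild-type replicate 1 or TKO replicate 1.

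Of 10 tested trophoblast and simple keratin genes, 5 were called higher and none lower (9.43% and 3.08% of all genes). Tead4, a factor of the trophectoderm, stood at 39.0 and 33.4 in wild-type and 387 and 460 in TKO (3.52 ± 0.27, adjusted p = 3e-07). Ly6a, the surface protein SCA-1, stood at 7.80 and 1.55 against 144 and 113, and at 745 and 760 with cytokines. Of 13 neural crest and placode genes, 4 were called higher and 1 lower, with a median of 1.27 that was 0.84 without wild-type replicate 2 and turned to -0.17 with TKO with cytokines in place of TKO without. Tfap2a, a factor of surface ectoderm and neural crest, stood at 9.75 and 11.7 against 325 and 544 (5.28 ± 0.40), but at 75.9 and 84.4 with cytokines. Dlx5, a homeobox gene of the same tissues, stood at 67.5 and 138 in TKO against 3 wild-type counts (ratio 77.3, interval 26.0 to 378) and at 0 and 4.96 with cytokines. Tfap2a and Dlx5 therefore shared with the rod genes a level that was higher without cytokines than with them.

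Of 7 tested muscle and heart genes, 3 were called higher (9.43% of all genes), beside the 6 of 7 skeletal muscle genes given above. Nkx2-5, a cardiac homeobox gene, stood at 3.90 and 3.11 in wild-type and 59.2 and 34.8 in TKO, and at 31.7 and 37.2 with cytokines. Ttn, which encodes titin, stood at 465 and 232 against 1175 and 1549 (1.94 ± 0.49), and at 410 and 359 with cytokines. It passed the limit of 2 without wild-type replicate 1 (2.49) or TKO replicate 1 (2.11). None of 6 tested blood and endothelium genes passed the test, and the globin genes Hba-a1 and Hbb-bt had no count in these 4 libraries. Col1a1, the collagen of connective tissue, stood at 354 and 185 against 1087 and 1928, and at 75.9 and 69.5 with cytokines. Krt5, a keratin of stratified epithelia, stood at 1.95 and 3.11 against 48.8 and 67.3, and at 4.53 and 3.72 with cytokines. The call for Col1a1 was lost without wild-type replicate 2 (adjusted p = 0.055) or TKO replicate 2 (1.99). Col1a1 and Krt5 were the 2 of 6 tested skin and connective tissue genes called higher. The 1 called lower was Col1a2, the partner chain of Col1a1, at 412 and 241 against 55.0 and 67.3 (-2.44 ± 0.77, adjusted p = 0.024), and at 26.1 and 14.9 with cytokines, and its call was lost without wild-type replicate 1 (adjusted p = 0.11), TKO replicate 1 (0.14) or TKO replicate 2 (0.1). Col1a1, Col1a2 and Krt5 were chosen after their values were seen.

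Cadherins and epithelial genes, which report on the change between epithelial and mesenchymal states, gave 3 calls in each direction among 16 genes. Of all genes 9.43% were called higher and 3.08% lower. Grhl2 and Grhl3, regulators of epithelial junctions, stood at 175 and 218 against 1139 and 1168 (2.52 ± 0.23, adjusted p = 1.4e-06) and at 18.5 and 13.2 against 358 and 323. Cdh3, which encodes P-cadherin, stood at 90.7 and 155 against 906 and 557. Zeb2, a repressor of epithelial genes, stood at 1839 and 1223 against 204 and 288 (-2.67 ± 0.31, adjusted p = 1.8e-05).

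Genes of growth and stress differed little. Of 15 proliferation genes none was called, and 2 were lower by adjusted p, a share near the 14.8% of all genes. Pcna, the DNA polymerase clamp, stood at 4518 and 4679 in wild-type and 2104 and 2133 in TKO (-1.15 ± 0.24, adjusted p = 0.0022), and Aurkb, a mitotic kinase, was lower by 0.83 ± 0.20. Of 12 p53 targets none was called and 3 were higher by adjusted p, beside 18% of all genes. These were Eda2r, a death receptor (1.84 ± 0.29, and 2.28 without wild-type replicate 1), Trp53inp1, a stress protein (1.63 ± 0.27), and Mdm2, the ligase that limits p53 (1.07 ± 0.23). Of 15 genes of hypoxia and glycolysis none was called. Slc2a1, a glucose transporter, was lower (-1.57 ± 0.41, adjusted p = 0.0087), as was Ldha (-1.14 ± 0.28, adjusted p = 0.0062), while Pdk1, which holds pyruvate from mitochondria, was higher (1.89 ± 0.49, adjusted p = 0.0088, and 2.09 without wild-type replicate 1). Of 4 listed Y-linked genes, Ddx3y, an RNA helicase, was called lower at 422 and 571 against 59.2 and 112 (-2.58 ± 0.37, adjusted p = 0.00011). Uty, Eif2s3y and Kdm5d did not pass, and Uty stood at 361 and 496 against 557 and 570.

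The highest log2 fold changes among called genes with a mean of 50 or more and no overlap included 6 genes of the eye. Rbp3 (chr14:33954003-33964219), a retinoid carrier between photoreceptors and pigment epithelium, had no wild-type count and stood at 402 and 730 in TKO, at least 215-fold higher. Prph2 (chr17:46910478-46924933), of rod outer segments, was at least 128-fold higher, the lens crystallin genes Cryaa (chr17:31677931-31681730) and Crybb2 (chr5:113058258-113070117) at least 67.5-fold and 61.3-fold. Crybb2 did not pass with DESeq2 (adjusted p = 0.22). Gnat1 and Rp1, a photoreceptor microtubule protein (1 wild-type count against 139 and 274), were also among them. These 6 eye genes were near 0 in TKO with cytokines, the highest value being 7.93 for Prph2. Taf7l, Cd22 and Gcm1 were not. Taf7l stood at 173 and 263 with cytokines. Cd22 (chr7:30865404-30880342), a sialic acid-binding receptor best known from B cells, had no wild-type count and stood at 138 and 84.1 in TKO, at least 42.3-fold higher, and at 55.5 and 55.9 with cytokines. Gcm1 (chr9:78051958-78065624), a factor of the placental labyrinth, stood at 137 and 145 against 1 wild-type count (ratio 326, interval 58.0 to 12921), and at 101 and 86.9 with cytokines.

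The genes with the lowest log2 fold changes were named by the same rule. Foxb1 (chr9:69757710-69760940), a forkhead gene of the neural tube, stood at 189 and 325 against 1.04 and 3.6 (-6.81 ± 1.02). Egr2 (chr10:67534469-67542188), which patterns the hindbrain, stood at 401 and 91.7 against 2.08 and 6.01 (-5.94 ± 0.87). Miat (chr5:112213228-112228948), a noncoding RNA, was lower by 5.78 ± 0.69, at 1969 and 2164 against 36.3 and 40.9. Ptn (chr6:36714924-36810179), a growth factor of neural progenitors, stood at 1970 and 759 against 21.8 and 30.0, and Frzb (chr2:80411970-80447396), a secreted Wnt antagonist, at 560 and 305 against 0 and 13.2. Plat (chr8:22757722-22782848), the tissue plasminogen activator, stood at 213 and 62.2 against 3 counts in TKO (ratio 77.1, interval 26.1 to 376). Crabp1, Cyp26c1 and Sox1 were also among them. In TKO with cytokines none of these 9 genes exceeded 38.5.

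At high levels, 5 genes called higher and 5 called lower had the largest means. Beside Dppa5a and Peg10 the higher ones were Alg13, an enzyme subunit of N-glycosylation (1395 and 1845 against 7518 and 7984), Mybl2, a regulator of cell cycle genes (1087 and 1199 against 8129 and 6892), and Gpx4, a lipid peroxidase (1467 and 1557 against 7143 and 5794). The call for Gpx4 (2.06 ± 0.33) was lost without TKO replicate 1 (1.89) and without wild-type replicate 1. Beside Rian the lower ones were Prtg, a surface protein of the neural tube (12937 and 7776 against 1580 and 1841), Tuba1a, the main tubulin of young neurons (10565 and 9415 against 1877 and 1808), and the kinase gene Pim2 (5567 and 9656 against 1116 and 1743), whose call was lost without wild-type replicate 2. The last, the histone gene H4c14, stood at 6462 and 9331 against 1720 and 2163 (-2.06 ± 0.51) and at 11070 and 7099 with cytokines, and its call was lost without wild-type replicate 2 (-1.77) or TKO replicate 1 (-1.92).

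The day 2 difference was set beside that of the EpiLCs from which the aggregates were made, which are other libraries. In EpiLCs 284 genes (1.71%) were called higher in TKO and 99 (0.597%) lower, 383 in all, which fell to 203 without wild-type replicate 1 and 169 without wild-type replicate 2, so the size of this list moved with single libraries. With library size alone the EpiLC calls were 531 higher and 78 lower. Of the genes higher at day 2, 138 were also called in EpiLCs, 8.83% of the day 2 list and 48.6% of the EpiLC list, and of the lower genes 35 were (6.85% and 35.4%). The naive list had a median of 0.81 in EpiLCs against 5.05 at day 2, the late germline list 0.56 against 3.87 and the PGC list 0.33 against 3.14. Dppa2 stood at 387 and 308 in wild-type EpiLCs and 387 and 368 in TKO EpiLCs, so the genotypes overlapped there, and it was at 20.5 and 5.44 against 915 and 804 at day 2. Prdm14 was already higher in both TKO EpiLC libraries, at 18.8 and 70.4 against 3.21 and 0.556. Sox1 was low in both kinds of EpiLC, at 22.5 and 18.3 against 83.3 and 19.8. The neural progenitor list had a median of 1.31 in EpiLCs and of -2.82 at day 2, but in EpiLCs none of its genes was called higher and 1 lower, and its summed level was 1507 and 1653 in wild-type and 783 and 420 in TKO. The median and the sum thus differed in sign there.

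**Figure D5:**
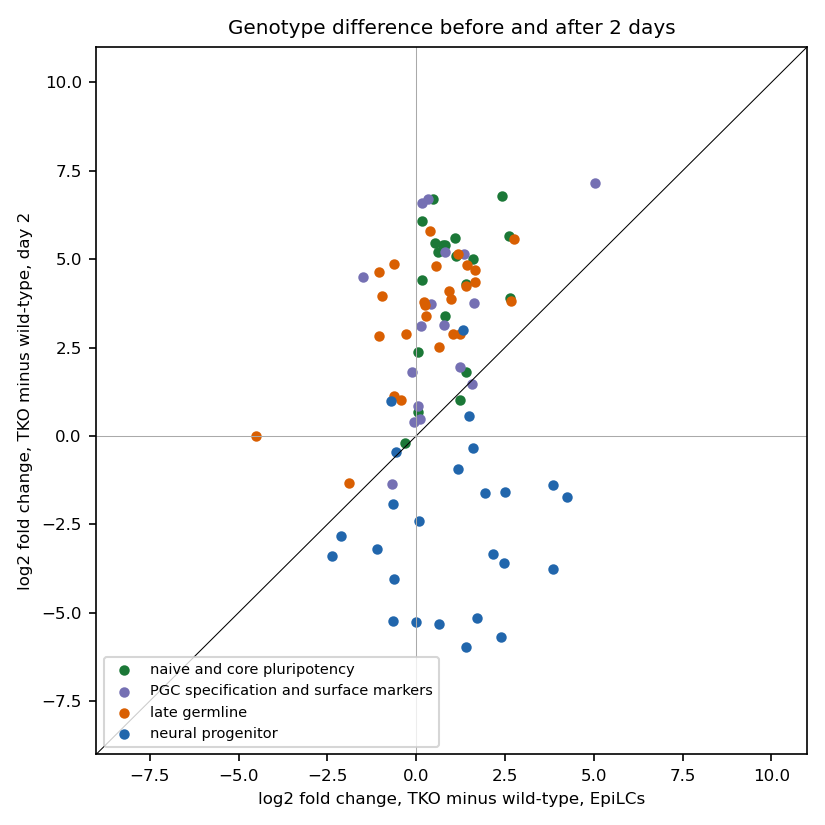
Log2 fold change between TKO and wild-type at day 2 (y axis) against that in EpiLCs (x axis) for the genes of 4 lists, leaving out Taf7l, which had no wild-type count at day 2. Most naive, PGC and germline genes lie above the diagonal, as Dppa2 does at 6.08, whereas most neural progenitor genes lie below it, as Sox1 does at -5.98.

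The interaction of genotype and time was tested in the same model. The day 2 log2 fold change minus that in EpiLCs was above 2 in 689 genes (4.16%) and below -2 in 372 (2.24%), whichever of the 2 differences was the larger in size. For Dppa2 the day 2 difference exceeded that in EpiLCs by 5.92 (adjusted p = 4.5e-06), for Zfp42 by 4.60 (adjusted p = 1.8e-05) and for Tfap2c by 3.79 (adjusted p = 6e-05). For Sox1 the value was -7.40 (adjusted p = 3e-05), and for Crabp1 it was -5.36 (adjusted p = 7.3e-05). For Prdm14 the change of 2.13 did not pass (adjusted p = 0.39).

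Levels over time showed which genotype had moved, as a description, since the calls rest on these libraries. Genes called higher had a median level of 12.6 in wild-type EpiLCs and 3.70 in wild-type aggregates at day 2, and of 23.0 and 47.3 in TKO. Among them 549 fell in wild-type between EpiLCs and day 2 and 395 rose in TKO by the same limits. Genes called lower had a median of 29.7 in wild-type EpiLCs and 192 at day 2, and of 18.9 and 23.7 in TKO. Among these 305 rose in wild-type and 39 in TKO. Tdgf1, for instance, went from 3785 and 3296 to 164 and 66.0 in wild-type and from 5779 and 9055 to 5531 and 5743 in TKO.

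At day 6 without cytokines, in other libraries, 2381 genes (14.4%) were called higher in TKO and 1568 (9.46%) lower. The day 2 genes were largely among them, with 1189 of those higher (76.1% of the day 2 list and 49.9% of the day 6 list) and 356 of those lower (69.7% and 22.7%). The naive list had a median of 7.91 at day 6, the late germline list 6.66 and the neural progenitor list -4.01. Zfp42 was at 3416 and 3084 in TKO at day 6, close to its day 2 levels, and at 13.1 and 4.63 in wild-type. Zscan4d was at 1078 and 1405 in TKO at day 6, above its day 2 levels of 120 and 129. The TKO libraries of day 6 also held rod genes, summed to 5341 and 7835.

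By chromosome, genes called higher made up 12.4% of tested genes on the X chromosome (77 of 620) and 7.07% to 11.5% on the autosomes. The median log2 fold change was 0.38 on the X chromosome and between -0.06 and 0.22 on the autosomes, and every chromosome held genes called higher. Of the 8 tested genes of the Y chromosome 2 were called higher and 1 lower, with a median of 1.18.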

How the data were processed

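RNA-seq counts of 25239 genes were taken as the authors deposited them. Per the labels and the study's methods, reads were trimmed with Trim Galore 0.5.0 (cutadapt 1.16), aligned to mm10 with STAR 2.7.1a and counted per gene over exons with featureCounts of Subread 1.5.2, without strand and without reads that fit several places, so antisense and near-identical genes cannot be told apart. The 33 text lines that name no gene were dropped. Levels are counts divided by DESeq2 size factors (DESeq2 1.42.0). Tests used edgeR 4.0.16 in R 4.3.3 (filterByExpr, TMM factors, quasi-likelihood F test) with 9 group means over 18 libraries of 11286050 to 41257861 counts, with Benjamini-Hochberg adjusted p-values. The SE is approximate and was taken from the log2 fold change and its F statistic. The procedure was tested on simulated data.

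Genes named were Tet1, Tet2 and Tet3, up to 5 members of smallest and 2 of largest p per list, the 10 highest and 10 lowest log2 fold changes among called genes with a mean of 50 or more and no overlap, and the 5 called genes of highest mean in each direction, and those said to be chosen after their values were seen. Members and lists were chosen with earlier results of these data known. Where a group held no count, a floor of 3 counts per library gave the bound. Where it held 1 to 3, the ratio is given with its 95% exact counting interval. Gene coordinates are from RefSeq (mm10) and matched by symbol for 16496 of the 16582 genes tested. Promoter windows are also from RefSeq, and the exons of the Tet genes are from GENCODE vM21. Alternatives were other normalisations, filters, thresholds and tests, a replicate block and each library left out. A few genes that this rule names are not reported here.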

Additional observations from a re-analysis of the deposited data

Results flagged for a closer look

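For 46 of the named genes the genotype difference at day 2 differed from that in EpiLCs by more than 2 on the log2 scale in the test of the difference itself (interaction term of edgeR's quasi-likelihood test, adjusted p below 0.05) and each of the 4 groups held more than 6 counts over its libraries. Another 21 named genes passed the same test with 6 counts or fewer in a group, among them Taf7l, Lhx5, Cyp26c1 and Hes3, and are not listed because their fitted values depend on the prior count. Values in brackets are the day 2 log2 fold change minus that in EpiLCs. Among pluripotency genes the value was above 0 for Dppa5a (4.92), Fgf4 (4.62), Zfp42 (4.60), Tdgf1 (4.5), Tfcp2l1 (3.41), Esrrb (3.02), Klf4 (2.58), Tcf15 (3.08) and Dppa2 (5.92). Among germ cell genes it was above 0 for Dppa3 (6.01), Pecam1 (4.37), Tfap2c (3.79), Prdm1 (3.31), Elf3 (2.35), Dazl (4.25), Tex19.1 (3.96), Hormad1 (3.55), Mael (3.42), Stk31 (3.04), Tuba3a (2.79) and Piwil2 (2.7). The same held for the signalling genes Lefty1 (3.77), Nodal (2.40), Pcsk6 (2.19), Bmp4 (3.59), Smad7 (3.16) and Bcl3 (2.47).

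Other genes with a value above 0 were Oasl2 (5.23), Oas1a (3.12), Dnmt3l (3.70), Apobec1 (2.26), Tet1 (2.52), Mybl2 (2.33), Grhl2 (2.48), Cdh3 (2.09), Tfap2a (3.25) and Mylpf (4.17). Tet1 was lower in TKO EpiLCs and did not pass the test at day 2. Of the genes of the sex chromosomes, Xist was at 4.09 and Ddx3y at 3.23. Ddx3y was lower in TKO at day 2 (-2.58), and its value above 0 means that it was lower still in TKO EpiLCs. The value was below 0 for Zeb2 (-2.14), Tuba1a (-2.29), Miat (-3.15), Crabp2 (-3.32), Irx3 (-3.44), Crabp1 (-5.36) and Sox1 (-7.40). The part of the rod, Hprt and Xist levels of the day 2 libraries in these values was not tested. Groups of 2 libraries were too small to look for single libraries that stood apart.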

How the results depend on the processing

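The count of 2074 genes called at day 2 stood between 1555 and 2200 under the other tests, filters and normalisations, was 1590 at an adjusted p below 0.01, 3843 with a log2 fold change beyond 1, and 1615 to 1762 with 1 of the 4 libraries left out. Library size alone shifted the median of all genes to 0.24, and no other normalisation moved it past 0.09. In EpiLCs, 383 calls became 609 with library size alone, 1127 beyond 1, 168 at an adjusted p below 0.01 and 169 to 380 with 1 library left out. At day 6 the calls were 6820 beyond 1 and 3612 to 4423 with 1 left out. For the interaction they were 1866 beyond 1, with 940 higher and 926 lower, so the excess of higher values was not seen there. They were 594 at an adjusted p below 0.01 and 725 to 1105 with 1 left out. With the replicate number as a block the calls were 2077 at day 2, 382 in EpiLCs, 3939 at day 6 and 1058 for the interaction. The deviations of same-numbered libraries correlated at 0.0012 over 2 pairs, so the numbers were not taken as pairing.

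Among genes, the direction turned for values near 0, namely Tet1 (0.0066 without TKO replicate 2, -0.70 without replicate 1), Sall4 (0.046 with library size alone), Kit (-0.024 without TKO replicate 1, 0.70 without replicate 2) and Id1 (between -0.29 and 0.35 with 1 library left out). With TKO with cytokines in place of TKO without, an alternative chosen after seeing the data, Fgf5 was at -1.53, Id3 0.59, Socs3 2.44, Uty -0.071, Hprt -2.04, Col1a1 -1.89 and H4c14 0.18. The neural crest median turned to -0.17 there and to -0.24 without genes over 4 times their level with cytokines, and the Hox median to -0.98 with a mean CPM of 1 and -0.99 with only the libraries compared. The cause of these changes was not tested.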

Other observations

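Gene families were counted by the start of their symbols, a choice made after the data had been seen, beside 9.43% of all genes called higher and 3.08% lower. Of 10 Nlrp genes tested, many of which are expressed in oocytes, 9 were called higher, with a median log2 fold change of 4.07. The same was true of 6 of 9 Pramel and Pramef genes (median 5.71), which are active in early embryos and germ cells, and of 4 of 5 Rhox genes (5.96), a homeobox cluster of the X chromosome expressed in reproductive tissues. These families hold close copies, so single values are uncertain.

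Histone genes of the clusters were lower by adjusted p in 41 of 60 cases (14.8% of all genes), with a median of -1.12, although 2 were called in each direction. Of 380 zinc-finger genes named Zfp, 19 were called higher and 9 lower. By adjusted p 61 of them were higher and 67 lower, beside 18% and 14.8% of all genes. Of 50 protocadherin genes 3 were called lower and none higher. The wild-type replicates were uneven for some genes picked after their values were seen, such as Crabp1 (6774 and 2049), Egr2 (401 and 91.7) and Pou5f1 (3786 and 8819).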
